A study of Danio rerio with 2 samples.

Results

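Cleavage and polyadenylation factors are the proteins that cut a pre-mRNA at its 3′ end, add the poly(A) tail and cover it. The set described here holds 10 zebrafish genes that encode such factors, out of 33737 genes in the deposited table. They were chosen by gene name from a list, and no threshold on level was used: cpsf1, cpsf2, cpsf3, cpsf4, cpsf6, fip1l1b, sympk, papolg, pabpn1 and pabpc1a. Earlier results of these data were known when they were chosen. All 10 had 1 row each whose gene name was the same in any letter case, so no name had to be matched without its paralogue suffix. The name table writes 8 of them in capitals.

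The series has 1 group, the RNA that came down with Flag-tagged Cpeb1b. Wild-type embryos were injected with mRNA for Flag-cpeb1b and collected at 16 h post-fertilization (hpf), when somites are forming. Whole embryos were lysed, the tagged protein was captured on beads carrying a Flag antibody, and the RNA that stayed bound was sequenced (RNA immunoprecipitation sequencing, RIP-seq) in 2 replicates named as biological. Both replicates carry the injected mRNA, so the tagged protein comes in addition to the embryo's own, in whichever cells inherited that mRNA. An input, a control precipitate or uninjected embryos were not analysed here. Each value is therefore a level in the precipitate, which cannot be told apart from abundance in the embryo, and in whole embryos fewer cells of a type and less RNA per cell cannot be told apart. For each gene the table lists a single RPKM, that is, reads scaled to the length of the gene and to the size of the library. It is the authors' mean of both replicates, so values carry no SD and no test between groups was possible.

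In the nucleus, the cleavage and polyadenylation specificity factor (CPSF) recognizes the poly(A) signal of a pre-mRNA and cuts downstream of it, a canonical poly(A) polymerase extends the new end, and the nuclear poly(A)-binding protein sets the length of the tail. In the cytoplasm, poly(A)-binding protein on the tail contacts the translation initiation factor at the cap. Cpeb proteins act on mRNAs that are already processed: in frog oocytes, CPEB bound to a 3′ untranslated region recruits CPSF and symplekin, together with a cytoplasmic poly(A) polymerase, and the tail is extended again. The roles given below were worked out mainly on human, yeast and frog proteins.

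The transcripts of all 10 genes were present at RPKM 1 or more, the level taken here as detected, against 38.6% of all genes in the table, 49.0% of distinct symbols and 55.1% of the symbols that match a protein-coding RefSeq gene. RPKM 0.1 or more, a looser threshold, was reached by the 10 and by 70.7% of all genes. At RPKM 5 or more there were 9 of the 10, against 13.3% of all genes and 19.4% of protein-coding symbols. At RPKM 10 or more there were 5, against 6.82% of all genes and 9.38% of protein-coding symbols. These counts may follow from the choice of the set, which was made with earlier results known. The median of the 10 was 9.23 RPKM, beside 0.507 RPKM over all genes, 3.22 RPKM over detected symbols and 3.29 RPKM over detected protein-coding symbols. Levels ran from 3.25 RPKM for cpsf4 to 444 RPKM for pabpc1a, a span of 137-fold. The poly(A)-binding protein genes stood at the top, the genes for the tail-adding polymerase, cpsf6 and fip1l1b in the middle, and the other CPSF and symplekin genes at the bottom. Summed, the set came to 563 RPKM, 0.0549% of the RPKM total, or 0.272% without the 10 highest rows of the table, which hold 79.8% of that total. Of the summed 563 RPKM, pabpc1a alone held 79.0%.

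**Figure D1:**
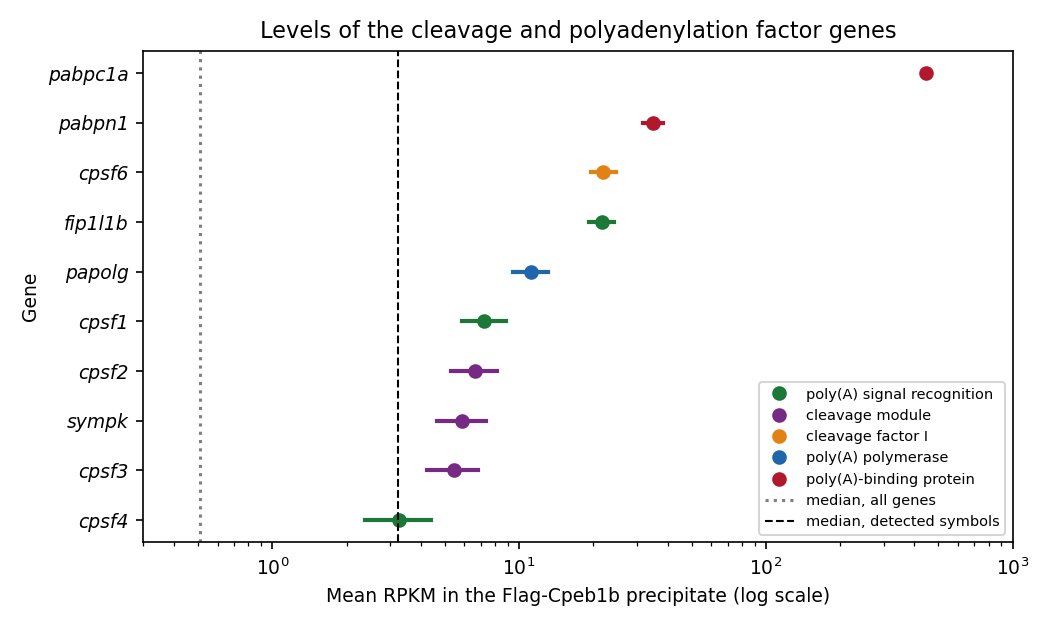
Mean RPKM of each of the 10 genes (points, log axis), coloured by role, with the 95% counting interval for a gene model of 1 kb (bars) and the medians of all genes (dotted, 0.507 RPKM) and of detected symbols (dashed, 3.22 RPKM). The point of pabpc1a lies far to the right at 444 RPKM, the points of cpsf1, cpsf2, sympk and cpsf3 lie close together between 5.44 and 7.24 RPKM, and cpsf4 lies on the dashed line.

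How far 2 genes can be told apart depends on their reads. Steps in the low values of the table correspond, provided that the authors took an unweighted mean of 2 libraries, to 6576775 and 6551358 reads. On that basis 13.1 reads per kilobase, counted in both libraries together, make up RPKM 1. The authors' gene lengths are not stated in those sources that were used, so 95% exact Poisson intervals were computed for a model of 1 kb, and a longer model narrows them. They cover counting error only and leave out the spread between embryos. On that footing, 37 of the 45 pairs of genes in the set had separate intervals and 8 overlapped. Of the 9 neighbouring pairs in the order of levels, 4 were separate and 5 overlapped.

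The poly(A)-binding protein genes were the highest of the set. The gene pabpc1a (ENSDARG00000017219), which encodes a cytoplasmic poly(A)-binding protein that protects the tail and promotes translation, had 444 RPKM (counting interval 433 to 456 RPKM). It ranked 57 of 33737 genes, above 99.8% of them, with about 5830 reads per kilobase. Its level was 3.75 times the sum of the other 9 genes, which was 118 RPKM. The gene pabpn1 (ENSDARG00000045373), whose nuclear product stimulates the polymerase and limits tail length, had 35.1 RPKM (31.9 to 38.4 RPKM) and rank 679. The pabpc1a level was 12.7 times that of pabpn1, so pabpc1a and pabpn1 differed by far more than counting error.

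Other genes of the same family were much lower. The close paralogue pabpc1b had 5.78 RPKM, so pabpc1a stood 76.8 times higher, and PABPC4 had 2.04 RPKM, a 218-fold difference. PABPC1L, an oocyte form in other vertebrates, had 0.190 RPKM, and the pabpn1 relative pabpn1l had 0.630 RPKM, 55.7-fold under pabpn1. The pabpn1l value rests on about 8.27 reads per kilobase, so the 55.7-fold ratio is imprecise. Of this family only pabpc1a, pabpn1, pabpc1b and PABPC4 reached RPKM 1. How reads shared by pabpc1a and pabpc1b were assigned is not given in the sources used here, so the split between these paralogues is uncertain. PABPC4 and pabpc1b were picked out after their values were seen. The choice of pabpc1a and pabpn1 for the set was made with earlier results known, so their place above these relatives may follow from it.

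Among the genes for recognition of the poly(A) signal, levels spread over 6.66-fold. The gene fip1l1b (ENSDARG00000070431), which encodes the subunit that links CPSF to poly(A) polymerase, had 21.6 RPKM (19.2 to 24.3 RPKM) at rank 1093. The gene cpsf1 (ENSDARG00000034178), for the large scaffold subunit, had 7.24 RPKM (5.86 to 8.85 RPKM) at rank 3175. The gene cpsf4 (ENSDARG00000020217), for the zinc-finger subunit that touches the signal itself, had 3.25 RPKM (2.37 to 4.41 RPKM) at rank 6331. Thus fip1l1b stood 2.99 times above cpsf1 and 6.66 times above cpsf4, and cpsf1 stood 2.23 times above cpsf4, all with separate counting intervals. The cpsf4 value was the lowest of the set and, at 1.01 times the median of detected symbols, an ordinary level for a detected gene. The remaining subunit that touches the signal, wdr33, is outside the set and had 6.16 RPKM, within the counting interval of cpsf1. The paralogue fip1l1a had 0.575 RPKM, or about 7.55 reads per kilobase, 37.6-fold under fip1l1b, so that ratio is imprecise. The entry cpsf7, a further subunit of cleavage factor I, matched no symbol and was not assessed.

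The genes of the cleavage module lay close together. The gene cpsf2 (ENSDARG00000028971) encodes a subunit related to the nuclease but itself inactive and had 6.66 RPKM (5.31 to 8.17 RPKM). The gene cpsf3 (ENSDARG00000027649), for the endonuclease that makes the cut, had 5.44 RPKM (4.22 to 6.82 RPKM). The gene sympk (ENSDARG00000059553), for the scaffold symplekin, had 5.87 RPKM (4.63 to 7.33 RPKM). The highest of these was 1.22 times the lowest. For the 1 kb model, their counting intervals overlapped one another and that of cpsf1. They ranked 3401, 4134 and 3842, above 89.9%, 87.8% and 88.6% of all genes in the order cpsf2, cpsf3 and sympk. The cpsf3 interval also overlapped that of cpsf4, while those of cpsf2 and sympk did not. A longer model narrows the intervals, so some of these overlaps may not hold for the true gene lengths.

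**Figure D2:**
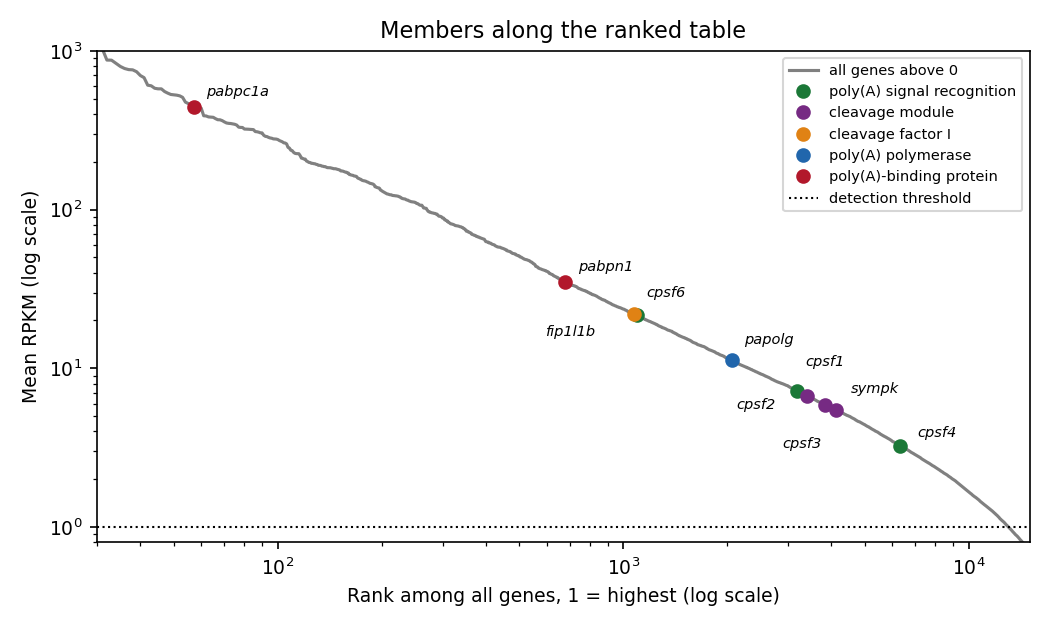
Mean RPKM of every gene (grey line) against its rank, both on log axes over the range that holds the set, with the 10 genes of the set as points coloured by role; the dotted line is RPKM 1. The points run from rank 57 for pabpc1a to rank 6331 for cpsf4, and cpsf6 and fip1l1b lie nearly on top of each other at ranks 1074 and 1093.

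Cleavage factor I, which binds upstream of the cleavage site and influences which site is used, is represented in the set by cpsf6. The gene cpsf6 (ENSDARG00000018618) had 22.0 RPKM (19.6 to 24.7 RPKM) at rank 1074, 1.02 times fip1l1b, and the intervals of these genes overlapped almost fully. Its level was 1.92 times that of NUDT21, the RNA-binding partner of its product, which had 11.5 RPKM. The gene papolg (ENSDARG00000012141), for a canonical poly(A) polymerase of the nucleus, had 11.2 RPKM (9.46 to 13.2 RPKM) at rank 2058. It was separate from fip1l1b above it and from cpsf1 below it, at 1.93-fold and 1.55-fold. Another canonical polymerase gene, PAPOLA, had 7.13 RPKM, so papolg was 1.57 times higher. The entry papolb matched no symbol and was not assessed. PAPOLA was picked out after its value was seen.

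**Figure D3:**
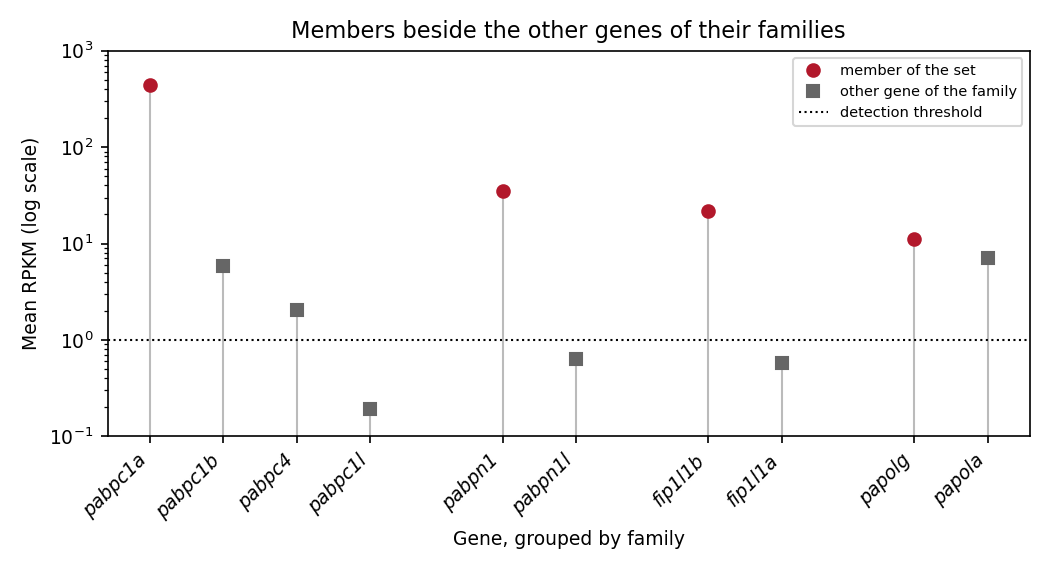
Mean RPKM (log axis) of 4 genes of the set (circles) beside other measured genes of their families (squares). The dotted line is RPKM 1, and vertical lines join each point to the axis. Among the genes shown, the gene of the set is the highest of each family. It leads by 76.8-fold for pabpc1a over pabpc1b and 55.7-fold for pabpn1 over pabpn1l. The lead is 37.6-fold for fip1l1b over fip1l1a and 1.57-fold for papolg over PAPOLA. The set was chosen with earlier results of these data known, so this order may follow from the choice. The 55.7-fold and 37.6-fold ratios are imprecise, since pabpn1l and fip1l1a have few reads.

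The row for the bait is given as a further level in the same precipitate and does not calibrate the others. The row named CPEB1, taken as cpeb1b, had 30.5 RPKM, and injected and endogenous cpeb1b reads cannot be told apart in it. Of the set, pabpc1a and pabpn1 were higher and 8 were lower. The level of pabpn1 was 1.15 times that of cpeb1b. No counting interval was computed for the bait row, so the order of pabpn1 and cpeb1b is uncertain. The level of cpeb1b was 1.39 times that of cpsf6 and 5.19 times that of sympk, whose product is a partner of CPEB in the frog oocyte.

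The set was placed beside 82 other genes of mRNA 3′ end processing and tail metabolism, drawn from 10 lists with 130 distinct entries. Of these 82 genes 68 (82.9%) were detected, against 38.6% of all genes and 55.1% of protein-coding symbols. The median of the 82 was 3.63 RPKM, and 17 lay above the median of the set. Both the set and the lists were chosen with earlier results known, so this difference may follow from the choice. The bait row CPEB1 is counted among the 82, the 68 and the 17. Only TENT4A lay above pabpn1. Among poly(A) polymerases and related nucleotidyltransferases, 8 of 9 genes besides papolg were detected, with a median of 3.37 RPKM. TENT4A, a noncanonical polymerase that adds mixed tails, had 48.8 RPKM, 4.35 times papolg. The uridylating enzyme gene tut4 had 18.5 RPKM, and TENT5A had 0.107 RPKM. Names for the cytoplasmic polymerase that CPEB recruits in frog, papd4 and tent2, did not match a row, so it was not assessed.

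The cleavage stimulation factor, which binds downstream of the cut, and cleavage factor II were uneven in level. CSTF3 had 17.3 RPKM, 7.80 times CSTF1 at 2.22 RPKM and 47.3 times CSTF2 at 0.366 RPKM, the subunit that binds RNA. The CSTF2 value rests on about 4.81 reads per kilobase, so the 47.3-fold ratio is imprecise. The entry cstf2t matched no symbol and was not assessed. PCF11, which links cleavage to the end of transcription, had 14.1 RPKM and CLP1 2.23 RPKM. The gene rbbp6, for an essential activator of the nuclease, had 31.0 RPKM, 1.41 times cpsf6. Of 8 genes in that list of other 3′ end factors 7 were detected, WDR82 at 0.485 RPKM being the exception. The shares detected were 38.6% for all genes and 55.1% for protein-coding symbols.

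Transcripts of genes for partners of the tail-binding proteins and for the machinery that removes tails were also found in the precipitate. Of 12 genes in the list of poly(A)-binding proteins and partners outside the set, 10 were detected, and the median over all 12 was 6.91 RPKM. EIF4G1, whose product joins poly(A)-binding protein to the cap complex, had 33.7 RPKM, close to pabpn1, and the pabpc1a level was far above it. Of 16 genes in the list headed deadenylases 15 were detected, against 10 of 10 in the set. The shares were 38.6% for all genes and 55.1% for protein-coding symbols. The median of the 16 was 3.12 RPKM, beside 9.23 RPKM for the set and 6.95 RPKM for the set without its poly(A)-binding protein genes. The highest of the list were CNOT6, for a catalytic deadenylase subunit, at 17.1 RPKM, cnot3b at 15.0 RPKM and CNOT3 at 10.3 RPKM. Other catalytic subunit genes were lower: CNOT8 had 4.10, PAN2 2.82, CNOT6L 2.01 and CNOT7 1.16 RPKM. Those lower genes were picked out after their values were seen. The entry parn matched no symbol and was not assessed. NOCT, whose product is disputed as a deadenylase, had 0.892 RPKM, just under the threshold. With 1 mean value per gene these medians are descriptions, and no test of the difference was made. Because the set and the list were chosen with earlier results known, the differences in count and median may follow from the choice.

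**Figure D4:**
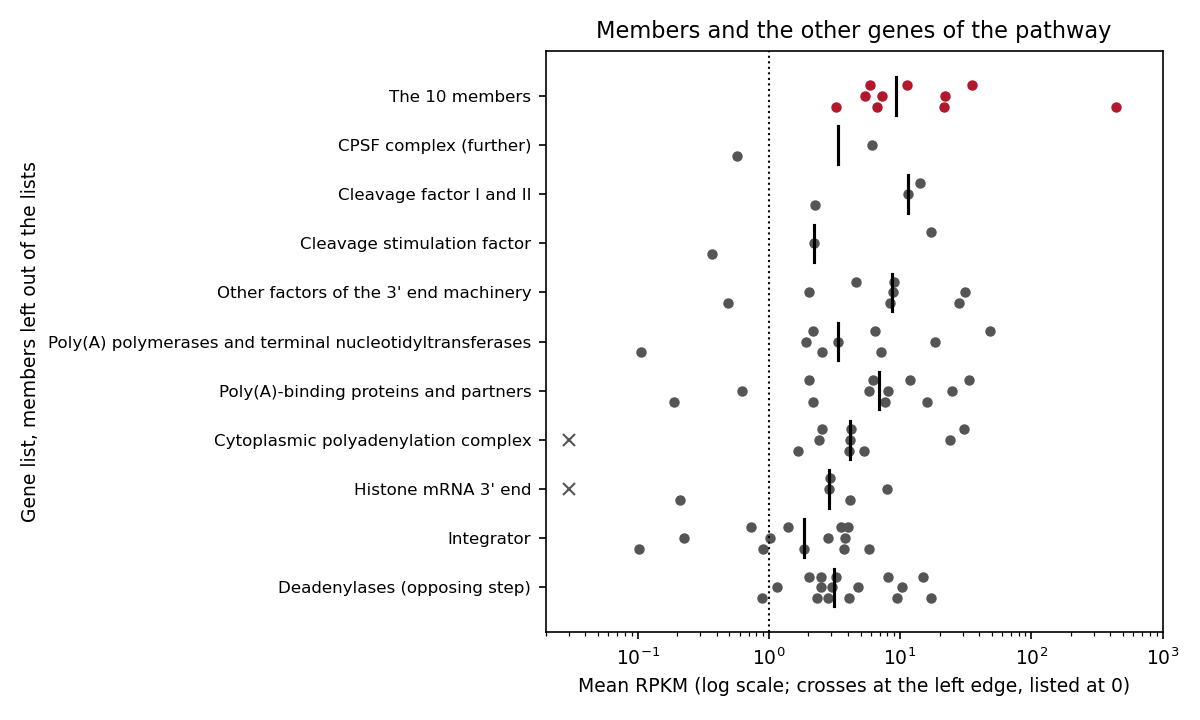
Mean RPKM (log axis) of the 10 genes of the set (red) and of the other genes in each of 10 lists (grey), with the median of each row of points as a black bar, RPKM 1 as a dotted line and crosses at the left edge for genes listed at 0. The set has its lowest point at 3.25 RPKM, right of the dotted line. The bar of the Integrator list lies at 1.85 RPKM, and 9 of the 10 lists have 1 or more points left of the dotted line or at 0. The set and the lists were chosen with earlier results of these data known, so this contrast may follow from the choice.

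Reads from overlapping genes could enter these values, since the use of strand is not given in the sources used here. In the RefSeq gene table, which is on another build (GRCz12tu), 5 of the 10 genes overlap another gene. Those of cpsf3, fip1l1b, sympk and papolg overlap a protein-coding gene at part of their span, and a long noncoding RNA gene lies within the span of pabpc1a. The other 5, cpsf1, cpsf2, cpsf4, cpsf6 and pabpn1, overlap none there. The part of such reads in the values was not tested.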

How the data were processed

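RIP-seq was done in 2 replicates of 1 group at 16 hpf. The deposited table, with no header, holds 1 RPKM per gene for 33737 Ensembl identifiers, which the authors averaged over the replicates, per the table's name. Per the submitters' processing notes, the tools include TopHat2 2.1.1 and Bowtie, cutadapt 1.13 and Trimmomatic 0.36, bedtools 2.16.2 and MACS2 2.0.10, and FastQC, and the build was Zv9. For the role of each tool, the annotation, gene lengths and strand use, nothing was given in these sources. The gene name table gave symbols for 21939 rows (19976 distinct symbols; the highest row of a symbol was used), and 15528 symbols matched a protein-coding gene of the RefSeq table (GRCz12tu). List entries were matched by name, then without a paralogue suffix.

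Depth was read from values of 0.4 to 2 RPKM shared by at least 3 rows: 135 of 171 such rows (78.9%) gave whole lengths within 0.002 at steps of 76.0 or 76.3 RPKM × nt. The search was tested on simulated libraries. If reads are counted in this way, the error at RPKM 1 is 27.6% for a 1 kb model and 8.73% at RPKM 10; this covers counting only, since the reads carry no stated molecular identifiers and need not be separate molecules.

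All members are named. Of each further list the 3 highest genes and up to 3 of the lowest under RPKM 1 were open to naming, and others are marked as picked afterwards. The members and lists were chosen with earlier results of these data known. Alternatives changed thresholds, row handling, the background of percentiles and the model length. Analyses used Python 3.11.15, numpy 2.4.6, pandas 2.3.3, scipy 1.17.1 and matplotlib 3.10.9. Sequences and Zv9 coordinates were not used here.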

Additional observations from a re-analysis of the deposited data

How the results depend on the processing

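No paired analysis was possible because both samples belong to a single group. Leaving out a replicate could not be done on a table of means, and the planned use of coding lengths was not run. The number of members detected was 10 at RPKM 1 and at RPKM 0.1, and 9 at RPKM 5, where cpsf4 dropped out. Of the 82 other pathway genes 31 reached RPKM 5 and 80 reached RPKM 0.1, against 68 at RPKM 1. The shares of all genes at RPKM 5, 1 and 0.1 were 13.3%, 38.6% and 70.7%. The median of the set, 9.23 RPKM, was 7.24 RPKM without pabpc1a and 6.95 RPKM without both poly(A)-binding protein genes, because the highest genes were removed; keeping every row or summing rows left it at 9.23 RPKM, as each symbol had 1 row. The set's share of the RPKM total, 0.0549%, was 0.272% without the 10 highest rows, which hold 79.8% of the total. The share of genes below the 10 members ran from 81.2% to 99.8% among all rows, from 75.7% to 99.9% among symbols, from 72.2% to 99.9% among protein-coding symbols and from 51.4% to 99.6% among rows at RPKM 1 or more. Neighbouring pairs with separate counting intervals numbered 4 of 9 for a 1 kb model and, in settings chosen after seeing the data, 3 for 0.5 kb and 5 for 3 kb.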

Other observations

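Genes for machines that cut RNA without adding a tail were also looked up. Of 13 measured Integrator genes, whose products cleave small nuclear RNA precursors, 9 reached RPKM 1, beside 38.6% of all genes and 55.1% of protein-coding symbols, with a median of 1.85 RPKM over all 13. The highest were ints6 at 5.78 RPKM, INTS3 at 4.03 RPKM and INTS8 at 3.78 RPKM. INTS11 and INTS9, relatives of the proteins encoded by cpsf3 and cpsf2, had 2.84 and 0.895 RPKM and were picked out after their values were seen. Of 6 measured genes in the list headed histone mRNA 3′ end 4 reached RPKM 1, beside the same 38.6% and 55.1%. Their median was 2.89 RPKM over all 6. With so few genes, both counts lie near the protein-coding share and are not read as a result about these machines. That list also holds ZCCHC8 at 4.15 RPKM and SNAPC1 at 0.212 RPKM, which are not histone 3′ end factors. The gene casp8ap2 had 8.01 RPKM, the stem-loop binding protein gene slbp2 had 2.93 RPKM and LSM11 was listed at 0. These levels overlap those of the set, and no test of a difference was made.

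Of 10 genes besides sympk in the list headed cytoplasmic polyadenylation complex, 9 reached RPKM 1, beside 38.6% of all genes and 55.1% of protein-coding symbols. The median over all 10 was 4.12 RPKM. CPEB1, the row of the injected bait, is counted among the 9 and in the median. After CPEB1, the highest entry was PUM3 at 24.2 RPKM, although its product is not an established partner of CPEB. The gene cpeb1a was listed at 0.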
